A study of Mus musculus with 6 samples.

Results

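The SOX genes described here are 10 transcription factor genes of neurons and glia, measured in RNA of the corpus callosum, the main axon tract between the cortical hemispheres, with and without a conditional deletion of Mettl14. They were chosen by name, and all 10 were found among the 24411 genes of the files. They fall into the SoxC group (Sox4, Sox11 and Sox12), the SoxB1 group (Sox1 and Sox2), the SoxD group (Sox5 and Sox6) and the SoxE group (Sox8, Sox9 and Sox10). SOX proteins bind DNA through a shared high-mobility-group domain and usually act with partner factors, POU proteins among them. In the developing brain SoxB1 proteins keep progenitors undifferentiated, SoxC proteins switch on genes of newborn neurons, and SoxE proteins specify and maintain astrocytes and oligodendrocytes. SoxD proteins lack an activation domain of their own and modify the work of other SOX proteins in both lineages.

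The study sequenced polyadenylated RNA from 3 libraries labelled cKO and 3 labelled WT, all from B6 mice on postnatal day 4, to ask what m6A, a methyl mark on RNA, does for mRNA in developing axons. Mettl14 encodes a subunit of the complex that writes this mark, and the cKO carries a conditional knockout of it; the Cre driver is not given in the sources used here. Tissue was cut out by hand from frozen sections and labelled as axon of the callosum, but the labels describe no step that removes cell bodies. Nothing in them ties a library to its own animal. The p-values therefore reflect how far these libraries vary, and that variation may be technical.

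Depth was low, from 670462 to 1208382 summed expected counts in the cKO libraries and from 843647 to 1268430 in the WT libraries. Between 10113 and 11110 genes had a count above 0 in a library. A count of 0 allows up to 3 counts, or 2.41 to 4.24 CPM, a count scaled to the library total, depending on the library. Both replicate 2 libraries were the deepest of their group and had shorter fragments, with means of 292.7 bases in cKO and 304.3 bases in WT, against 332.4 to 350.5 bases in the other libraries. Mettl14 itself had 2, 7 and 2 counts in cKO replicates 1 to 3 and 11, 8 and 5 in WT replicates 1 to 3, too few for the test. Its fitted log2 fold change was -0.88, with an approximate standard error (SE) of 0.55, and its groups overlapped, so the label could not be checked at this depth. Xist had 2970, 2323 and 4618 counts in cKO and 0 in every WT library, whereas Eif2s3y, a Y-linked gene, had 0 in every cKO library and 54, 80 and 51 counts in WT. The deletion and this sex-linked difference cannot be told apart in any comparison below.

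Of the SoxC genes, Sox11 rose 5.69-fold in cKO and Sox4, with the highest mean level of the SOX genes in both groups by the deposited TPM, had higher values in every cKO library without passing the test. Sox2, the progenitor factor of the SoxB1 group, had lower values in every cKO library and did not pass either. The glial SoxE genes were at or near 0 in all 6 libraries of both groups. Within each library the SoxC genes held 89.2% to 90.4% of the summed SOX level in cKO and 60.0% to 66.7% in WT.

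Sox11 promotes neuronal differentiation and axon growth, and is encoded by 1 exon at chr12:27334268-27342718 on the minus strand of GRCm38. It had 2851, 3000 and 3920 counts in cKO replicates 1 to 3, against 728, 777 and 631 counts in WT replicates 1 to 3. Its level per length was 559.2, 446.8 and 1071 TPM (scaled to transcript length and library total) in cKO and 138.7, 112.1 and 114.4 TPM in WT. Every cKO library was far above every WT library, and cKO replicate 3 had the highest level of all. The level averaged 692.2 ± 332.6 TPM in cKO and 121.7 ± 14.77 TPM in WT (SD, n = 3 each). The log2 fold change was 2.51 (SE 0.27, edgeR quasi-likelihood test, Benjamini-Hochberg adjusted p = 0.0177), a fold of 5.69. Sox11 was the 1 gene called higher among the 7 SOX genes that passed the filter on low counts, and 0 were called lower by edgeR, where 2 had an unadjusted p below 0.05 and were called by DESeq2. Across all 5918 genes tested, the same rule called 0.49% higher and 0.422% lower. The edgeR call of Sox11 did not hold at an adjusted p below 0.05 without WT replicate 1 (0.119), WT replicate 2 (0.0684), WT replicate 3 (0.14) or cKO replicate 1 (0.15), nor with upper-quartile scaling (0.0746). It did not hold without both replicate 2 libraries (0.142) or with the replicate number as a block (0.11) either. With a term for the replicate 2 libraries it held (0.0265). The log2 fold change stayed between 2.08 and 2.69 in all 17 alternatives, over which the adjusted p ran from 3.92e-16 to 0.15.

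Sox4 acts with Sox11 on many of the same neuronal targets, and lies in 1 exon at chr13:28948919-28953699 on the minus strand. It had 1876, 2081 and 1163 counts in cKO and 1214, 1288 and 1015 counts in WT. Per length this was 1143, 950.2 and 988.5 TPM in cKO, against 716.5, 571.3 and 570.7 TPM in WT. The groups did not overlap on the TPM scale, and Sox4 had the least spread relative to its mean of the SoxC genes in cKO, with 1027 ± 102.3 TPM, against 619.5 ± 84.02 TPM in WT (SD, n = 3 each). The edgeR log2 fold change was 0.80 (SE 0.23) with an adjusted p of 0.234, which did not pass; DESeq2 gave 0.79 with an adjusted p of 0.0102. Over the alternatives the log2 fold change of Sox4 lay between 0.34 and 0.96.

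Sox12, a weaker activator of the same group, had 355, 401 and 0 counts in cKO and 10, 256 and 84 counts in WT. It was listed at 0 in 1 cKO library and above every WT library in the other two, so the groups overlapped. Its log2 fold change was 1.48 (SE 1.71, edgeR adjusted p = 0.82), and it was -0.31 with limma-voom, so no direction can be given.

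**Figure D1:**
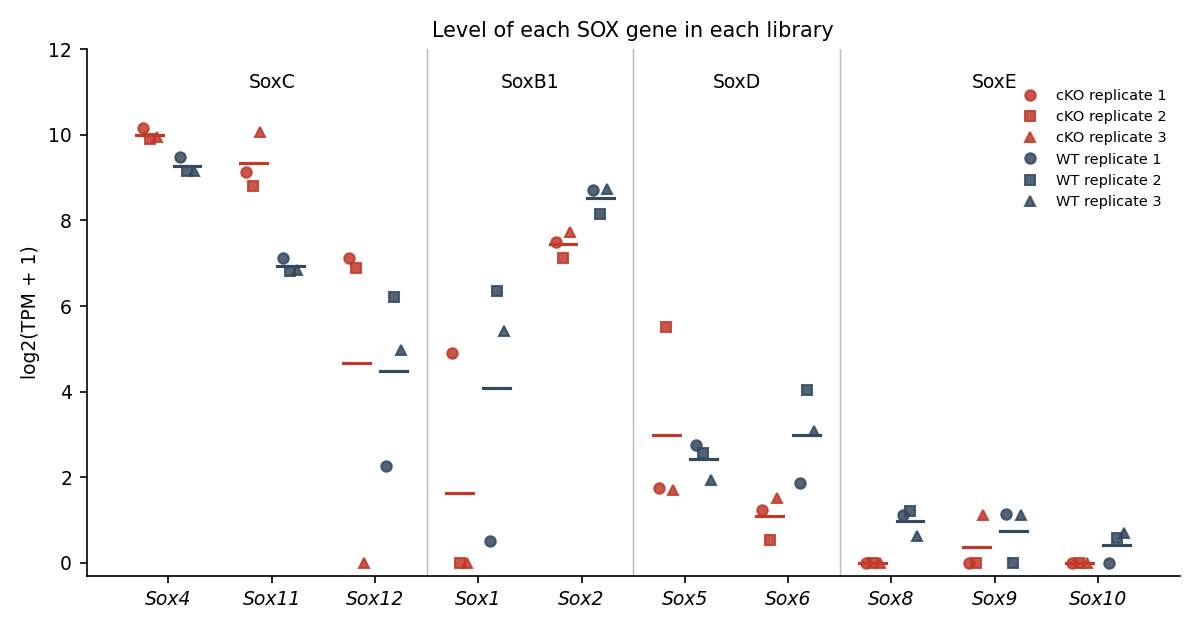
Level of the 10 SOX genes in each library, as log2(TPM + 1), with cKO in red left of WT in blue. Marker shape gives the replicate and horizontal lines are group means on that scale; Sox11 in cKO lies between 446.8 and 1071 TPM, above all WT libraries, and Sox8, Sox9 and Sox10 lie at or below 1.31 TPM throughout.

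The sequence around the start of each gene is shown for the pair of SoxC genes that carry most of the signal and for Sox2, which had the opposite direction. These are RefSeq promoter entries on GRCm38.p6, 250 bases before to 50 bases after the start, written 5′ to 3′ on the strand of the gene. Capitals mark the letters of the CCAAT box (CCAAT, or ATTGG on the other strand) and of the GC box (GGGCGG, or CCGCCC on the other strand).
Sox11, chr12:27342669-27342968, minus strand: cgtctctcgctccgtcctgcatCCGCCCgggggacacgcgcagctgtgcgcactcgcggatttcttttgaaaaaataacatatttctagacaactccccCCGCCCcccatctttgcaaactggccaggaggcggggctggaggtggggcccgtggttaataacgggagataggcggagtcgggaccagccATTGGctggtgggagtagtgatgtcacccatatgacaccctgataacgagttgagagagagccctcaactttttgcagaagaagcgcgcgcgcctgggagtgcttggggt
Sox4, chr13:28953650-28953949, minus strand: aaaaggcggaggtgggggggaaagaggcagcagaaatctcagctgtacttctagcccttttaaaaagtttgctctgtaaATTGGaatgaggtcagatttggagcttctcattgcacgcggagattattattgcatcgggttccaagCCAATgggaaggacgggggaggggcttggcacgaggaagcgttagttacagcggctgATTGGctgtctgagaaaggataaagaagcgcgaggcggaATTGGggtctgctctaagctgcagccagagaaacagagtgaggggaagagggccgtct
Sox2, chr3:34649745-34650044, plus strand: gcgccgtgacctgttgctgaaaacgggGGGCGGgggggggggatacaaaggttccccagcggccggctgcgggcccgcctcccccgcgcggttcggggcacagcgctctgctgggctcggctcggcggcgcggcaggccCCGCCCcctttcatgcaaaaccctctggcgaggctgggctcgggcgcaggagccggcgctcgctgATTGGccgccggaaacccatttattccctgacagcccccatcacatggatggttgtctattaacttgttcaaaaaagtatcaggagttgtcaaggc
Sox11 and Sox2 each held 1 CCAAT and 2 GGGCGG matches, whereas Sox4 held 4 CCAAT matches and no GGGCGG. Of all 27025 promoters in the table, 37.9% held CCAAT and 35.9% held GGGCGG on either strand. The window of Sox11 had 21 CG pairs, that of Sox4 had 12 and that of Sox2 had 27, against a median of 7. The letters TATAAA, present in 14.2% of all promoters, were found in none of the 3 windows. A match is a run of letters and was not tested as a binding site, and Sox9 and Sox10 had no entry in the table.

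The METTL3 and METTL14 complex methylates adenosine within a short consensus, of which GGACT in DNA letters is a common form. The 25-base stretch around the GGACT closest to the end of the coding sequence is shown for the SoxC genes and Sox2, with those 5 letters in capitals, because the deletion removes a part of this enzyme. Sequences are spliced transcript sequences of GENCODE M21 on GRCm38.
Sox11, chr12:27341252-27341276, minus strand: tgatcgcgggGGACTggctggaggc
Sox12, chr2:152396785-152396809, minus strand: tgatcgcaggGGACTggcgctcgtc
Sox4, chr13:28951769-28951793, minus strand: tcgaattcccGGACTattgcacgcc
Sox2, chr3:34651371-34651395, plus strand: tgtgagggctGGACTgcgaactgga
The stretches of Sox11 and Sox12 lie in the coding sequence, with the GGACT starting 45 bases before its last base in both. They were identical at 19 of 25 bases, a count that includes the 5 letters of GGACT by which the stretches were chosen. The GGACT of Sox4 starts 84 bases before the last coding base, and its stretch matched Sox11 at 8 of 25 bases, the same 5 included. The GGACT of Sox2 lies in the 3′ UTR, starting 6 bases after the last coding base, while its stretch begins in the coding sequence. Searched on the sense strand only, the whole Sox11 transcript held 11 GGACT, or 1.32 per kb. Sox4 held 9 (1.88 per kb), Sox12 held 12 (2.69 per kb) and Sox2 held 3 (1.46 per kb). The median over 5859 tested genes with a matched coding transcript was 1.04 per kb, and 93.0% of them held at least 1. Sox12, at percentile 96.8, had the densest sequence of the family and Sox10, with 1 match and percentile 11.8, the least. Methylation was not measured here, and a match of letters does not show a mark.

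Sox2 keeps neural stem cells and precursors in an undifferentiated state, and lies in 1 exon at chr3:34649995-34652461 on the plus strand. It had 240, 247 and 202 counts in cKO, against 573, 516 and 609 counts in WT. In TPM it stood at 180.7, 138.7 and 212.2 in cKO and at 417.3, 281.7 and 422.8 in WT, with no overlap. The means were 177.2 ± 36.88 TPM in cKO and 373.9 ± 79.91 TPM in WT (SD, n = 3 each). The log2 fold change was -1.05 (SE 0.33) with an edgeR adjusted p of 0.266 and a DESeq2 adjusted p of 0.0151, and it lay between -1.48 and -0.91 over the alternatives. Sox2 lies within Sox2ot, a long noncoding RNA on the same strand, which had 0 counts in every cKO library and 2, 86 and 138 counts in WT, at least 61.6-fold lower in cKO taking 3 counts over the group. Sox2ot did not pass the filter and was not tested, and its bound allows for counting error at 0 only.

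Sox1, the other SoxB1 gene, also acts in progenitors. It had 67, 0 and 0 counts in cKO and 1, 257 and 105 counts in WT. Each group held both a library at 0 or 1 count and a library at 67 or more, so its change of -1.88 on the log2 scale (SE 2.14, edgeR adjusted p = 0.815) carries little information.

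Of the SoxD genes, Sox5 is known in cortex for the fate and migration of deep-layer projection neurons, and Sox6 for progenitors and interneurons; both act in oligodendrocyte precursors. Sox5 had 10, 251 and 7 counts in cKO and 26, 29 and 13 in WT, so that its change of 2.02 on the log2 scale (SE 1.25, edgeR adjusted p = 0.584) rested on cKO replicate 2 and was -0.94 without it. Sox6 had 7, 3 and 7 counts in cKO, against 14, 107 and 41 in WT. The groups of Sox6 did not overlap, with the cKO libraries between 0.44 and 1.86 TPM and the WT libraries between 2.63 and 15.3 TPM. The log2 fold change of Sox6 was -2.75 (SE 0.77, edgeR adjusted p = 0.23), from -3.24 to -1.69 over the alternatives, and DESeq2 gave an adjusted p of 0.00925. The division of reads among isoforms of both genes was unstable: the Sox5 isoform of 7079 bases took 100%, 79.02% and 32.02% of the gene in cKO replicates 1 to 3 and 0%, 34.14% and 69.98% in WT replicates 1 to 3, by the deposited isoform percentages.

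The SoxE genes encode the factors that glia are best known for: Sox9 starts gliogenesis and marks astrocytes, Sox10 switches on myelin genes, and Sox8 works beside both. Sox8 had 0 counts in each cKO library and 2, 3 and 1 counts in WT. Taking 3 counts over the cKO group and the WT counts as exact gives a fold of 1.64, which leaves out the counting error of WT. Sox9 had 0, 0 and 2 counts in cKO and 3, 0 and 3 in WT, a pooled WT-over-cKO ratio of 2.45 with an exact 95% counting interval of 0.439 to 24.9. Sox10 had 0 counts in each cKO library and 0, 1 and 1 in WT, too few for a ratio. None of the 3 passed the filter, so neither group can be called higher, and the intervals cover counting error only. Summed, the SoxE genes had 0, 0 and 2 counts in cKO and 5, 4 and 5 in WT.

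Genes that glia express downstream of or beside these factors had many counts in WT. Mbp, a major myelin protein, had 0, 0 and 2 counts in cKO and 1101, 841 and 917 in WT. Pdgfra, the growth factor receptor of oligodendrocyte precursors, had 15, 31 and 8 counts in cKO and 764, 989 and 862 in WT, and the astrocyte enzyme gene Aldoc had 23, 29 and 23 in cKO and 678, 928 and 632 in WT. Against these, Sox10 never exceeded 1 count and Sox9 never exceeded 3. Olig2, the lineage factor of oligodendrocytes, was also low, with 0, 2 and 0 counts in cKO and 7, 1 and 4 in WT, while its neighbour Olig1 had 706, 625 and 0 in cKO and 1719, 1637 and 1595 in WT. The WT libraries thus held RNA of myelin and astrocyte genes with almost no counts for the SoxE genes, and why the SoxE genes were so low was not tested.

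Ordered by mean TPM, the cKO libraries ran Sox4, Sox11, Sox2, Sox12, Sox5, Sox1, Sox6, Sox9, with Sox8 and Sox10 at 0. Of these neighbours, Sox11 with Sox2 and Sox2 with Sox12 had ranges that did not overlap, and the others overlapped or were at 0. The WT libraries ran Sox4, Sox2, Sox11, Sox1, Sox12, Sox6, Sox5, Sox8, Sox9 and Sox10. There Sox4, Sox2 and Sox11 were each separate from the next gene and so was Sox5 from Sox8, whereas the other neighbours overlapped. Sox11 and Sox2 therefore stood in opposite order in the 2 groups. Within all detected genes of a library, Sox11 lay at percentile 96.6 to 98.5 in cKO and 87.6 to 92.2 in WT, and Sox2 at 89.2 to 93.9 in cKO and 94.5 to 96.5 in WT. Sox4 lay at 97.2 to 98.5 over all 6 libraries. The deposited model of Sox4 has 2953 bases where RefSeq gives an exon of 4781 bases. With its counts kept and only the length changed, Sox4 would have 672.3, 563.3 and 580.7 TPM in cKO and 422.2, 338.1 and 335.9 TPM in WT. Fragments from bases outside the deposited model were not counted and would raise these values. Its means would then be 605.4 TPM in cKO, below that of Sox11, and 365.4 TPM in WT, below that of Sox2. The first place of Sox4 therefore holds by the deposited model, and its place on the longer model was not tested.

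Ratios between SOX genes within a library do not depend on how libraries are scaled. The Sox11 to Sox4 ratio of TPM was 0.489, 0.47 and 1.08 in cKO, against 0.194, 0.196 and 0.2 in WT. It was nearly constant in WT and higher in each cKO library, most of all in replicate 3. The Sox2 to Sox4 ratio was 0.158, 0.146 and 0.215 in cKO and 0.582, 0.493 and 0.741 in WT, and the Sox11 to Sox2 ratio was 3.09, 3.22 and 5.05 in cKO and 0.332, 0.398 and 0.271 in WT. Both sets of ratios were apart in the 2 groups. The SoxC genes summed to 1841, 1515 and 2059 TPM in cKO and to 859, 756.2 and 715.2 TPM in WT. The other 7 SOX genes summed to 213.3, 183.8 and 217.5 TPM in cKO and to 428.5, 384.6 and 477 TPM in WT, most of it Sox2. On the log2 scale the SoxC sum stood 3.11, 3.04 and 3.24 above the sum of the others in cKO and 1, 0.975 and 0.584 above it in WT. The difference of the group means was 2.28, against an SD within groups of 0.181, and it was 1.83 with Sox11 left out. This difference is a description and carries no p.

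**Figure D2:**
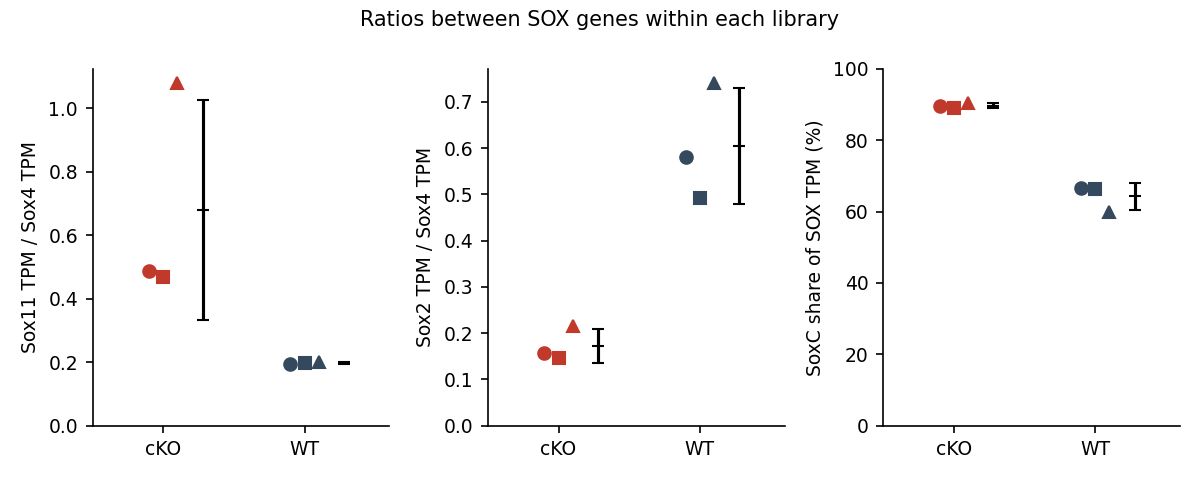
Ratios between SOX genes within each library, cKO left of WT: Sox11 over Sox4, Sox2 over Sox4, and the SoxC share of the summed TPM of all 10 SOX genes. Circles, squares and triangles are replicates 1, 2 and 3 and bars are mean ± SD (n = 3); the share is 89.7% ± 0.611 in cKO and 64.3% ± 3.76 in WT.

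Counting only groups that did not overlap on the CPM scale, 2 of the 7 SOX genes that passed the filter were higher in cKO (Sox4 and Sox11) and 2 were lower (Sox2 and Sox6), where 10.4% of all genes tested were higher and 9.45% lower by that criterion. These 4 genes had an unadjusted edgeR p below 0.05, from 4.18e-05 for Sox11 to 0.0171 for Sox2, as did 12.6% of all genes tested. DESeq2 called the same 4, with 4.22% of all genes called higher and 3.02% lower.

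**Figure D3:**
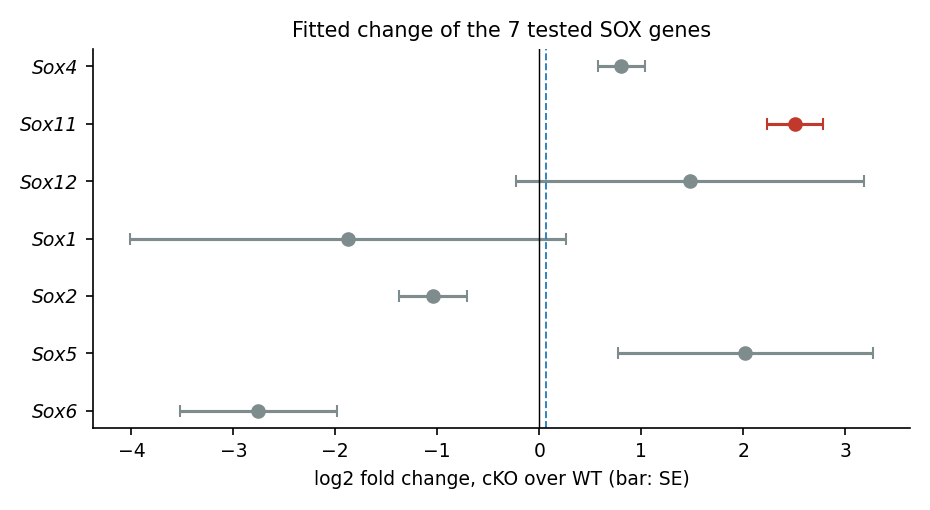
Fitted log2 fold change, cKO over WT, of the 7 SOX genes that passed the filter, with SE as bars and the median of all genes tested as a dashed line at 0.07. Sox11, at 2.51, is in red as the gene with an edgeR adjusted p below 0.05; Sox12, Sox1 and Sox5 have SE above 1.

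Spread between replicates differed sharply within the family. The coefficient of variation of CPM was 31.4% in cKO and 13.4% in WT for Sox11, where genes of similar level had medians of 20.1% in cKO and 16.2% in WT. For Sox2 it was 13.2% in cKO and 26.3% in WT, against 30.8% in cKO and 25.1% in WT for genes of its level. Sox1 reached 173% in cKO and 93.9% in WT, and Sox12 87.6% in cKO and 92.9% in WT, where genes of their level had medians from 45.4% to 53.3%. Sox12 and Sox1 in cKO and Sox1 in WT had at most 1 count in one library and at least 50 in another of the same group. This held for 484 of 4000 genes in cKO (12.1%) and 413 of 4099 in WT (10.1%), but for 55 of 101 genes with 1 exon in cKO (54.5%) and 36 of 80 in WT (45.0%).

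The SoxC and SoxB1 genes all have 1 exon, so they were set beside other genes of that kind. Of 91 genes with 1 exon and a mean of at least 20 counts, 25.3%, 7.69% and 44.0% had at most 1 count in cKO replicates 1 to 3, and 46.2%, 7.69% and 36.3% in WT replicates 1 to 3. For 296 genes with 2 or 3 exons at that mean, Neurod2 among them, the share was 20.9%, 5.74% and 34.5% in cKO and 44.6%, 12.8% and 39.2% in WT. For genes with more than 3 exons at that mean, Sox5 and Sox6 among them, it was 0.672% to 4.24%. Sox8, Sox9 and Olig2 have 2 or 3 exons and Sox10 has more than 3. Their means were below 20 counts, so these shares leave them out. Genes with 1 exon took 3.19%, 2.92% and 3.01% of the counts in cKO, against 2.04%, 2.1% and 2.17% in WT. The 67 of them tested had a median log2 fold change of 0.77, and 2 (2.99%) were called, both higher in cKO. These 2 were Sox11 itself and the POU factor gene Pou3f1. The 5613 genes with more than 3 exons had a median of 0.05. Within the 67, 10 genes including Sox11 lay at or above its change and 33 including Sox4 lay at or above that of Sox4, while 9 including Sox2 lay at or below that of Sox2. When the scaling factors were computed on genes with 1 exon alone, Sox11 stood at 2.08 (edgeR adjusted p = 0.0262), Sox4 at 0.34 and Sox2 at -1.48. The part of exon number in the SOX results was not tested further.

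**Figure D4:**
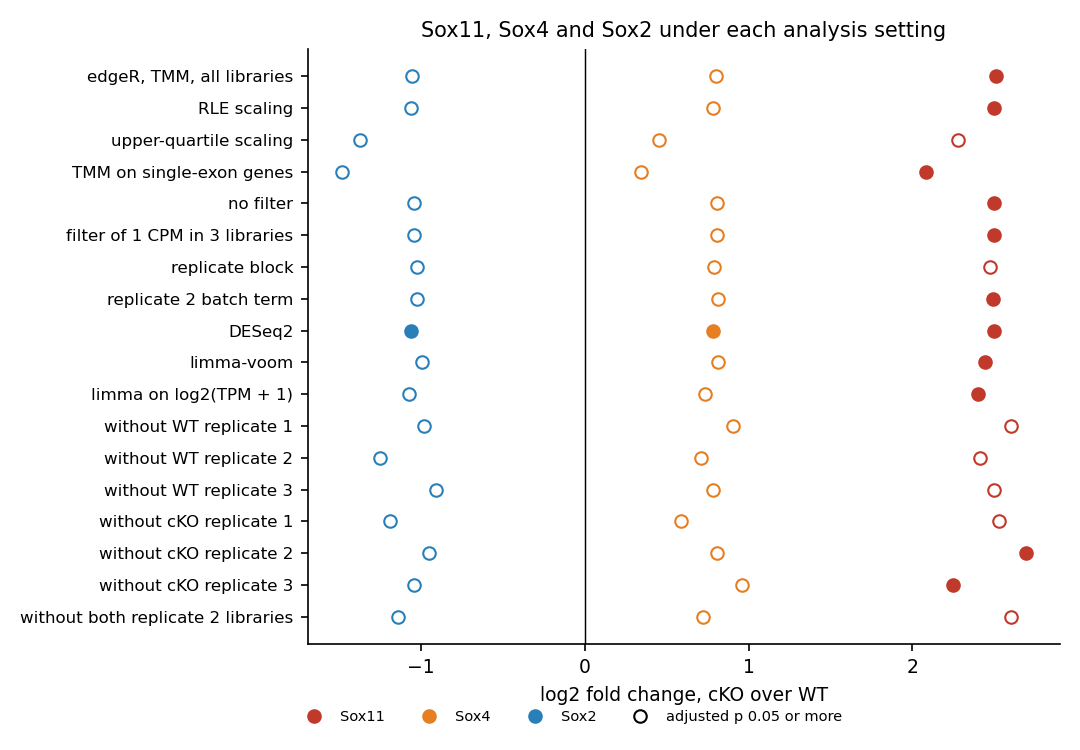
Log2 fold change, cKO over WT, of Sox11 (red), Sox4 (orange) and Sox2 (blue) under each setting, filled where the adjusted p is below 0.05. Sox11 lies between 2.08 and 2.69 and Sox2 between -1.48 and -0.91 in every setting, and Sox4 between 0.34 and 0.96, while filled points vary with the setting.

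The profile most like that of Sox11 over the 6 libraries was that of Zbtb18, a zinc finger repressor of cortical neurons, at a root mean square distance of 0.178 in centred log2(CPM + 1). Zbtb18 had 2375, 2509 and 2493 counts in cKO and 644, 521 and 516 in WT. Its log2 fold change was 2.41 (SE 0.27, edgeR adjusted p = 0.0206), and this call was lost when any 1 library except WT replicate 2 was left out, with adjusted p of 0.0562 to 0.155. Next came Fmr1 at 0.335, Tnrc6c at 0.388, Plxna2 at 0.405 and Igfbpl1 at 0.407, of 5889 genes compared. Fmr1, which encodes an RNA-binding protein of neurons, had 66, 112 and 170 counts in cKO and 33, 22 and 20 in WT, a log2 fold change of 2.50 with SE 0.62 (adjusted p = 0.19 in edgeR).

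POU factors and proneural factors partner with SOX proteins in progenitors and newborn neurons. Of 11 such genes 5 were tested, and 2 were called higher in cKO and 0 lower, where 0.49% of all genes tested were called higher. Neurod2, a factor of cortical excitatory neurons, had 1973, 1996 and 1470 counts in cKO and 0 in each WT library, at least 2220-fold higher taking 3 counts over the group (edgeR adjusted p = 0.00664). Pou3f1, a POU factor of upper-layer neurons, had 249, 249 and 197 counts in cKO and 0 in each WT library, at least 283-fold higher (edgeR adjusted p = 0.0206), a call that held without WT replicate 2 alone of the 6 libraries and was lost with a term for both replicate 2 libraries (0.0637). Pou3f3 had 1020, 960 and 1193 counts in cKO and 534, 456 and 496 in WT, a log2 fold change of 1.38 with SE 0.32 (adjusted p = 0.169 in edgeR). Pou3f2 had 840, 827 and 690 counts in cKO and 0, 0 and 33 in WT, a log2 fold change of 6.27 with SE 1.73 (adjusted p = 0.225 in edgeR). All 5 tested genes were higher with groups that did not overlap, as were 10.4% of all genes tested. Neurod2, Pou3f1, Pou3f2 and Neurod6 (0, 190 and 1 counts in WT) passed the filter only through their cKO libraries. The filter thus set their direction in advance, and the counts and median of this list are a description, not a test. The list had a median of 6.27, with or without bounds, against 0.07 over all genes, and its sum was 5293 to 6722 CPM in cKO and 518.9 to 616.9 CPM in WT. Of the 5 tested genes 3 have 1 exon, and the 67 tested genes with 1 exon had a median of 0.77, with 2.99% called. That share consists of Pou3f1 and Sox11, so it is no separate background for either. The folds against WT at 0 allow for counting error at 0 only. In WT replicates 1 to 3, 46.2%, 7.69% and 36.3% of genes with 1 exon had at most 1 count. With 2 or 3 exons it was 44.6%, 12.8% and 39.2%, in both classes among genes averaging at least 20 counts. The part of exon number here was not tested. Pou3f4, Neurog1, Neurog2 and Neurod4 were at 0 in all 6 libraries.

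SoxC proteins are known to activate cytoskeleton genes of newborn neurons, Tubb3 and Dcx among them. All 12 genes of that list were tested and had positive fitted changes, with a median of 0.63, where 3188 of all 5918 genes tested were positive, and 1 was called higher, against 0.49% of all genes. The list also holds Tead2, a transcription factor gene, with 5, 70 and 4 counts in cKO and 20, 16 and 14 in WT. Tubb2b, a tubulin gene of young neurons whose reads are partly shared with its paralogs, had 7390, 9311 and 6291 counts in cKO and 5188, 5530 and 4129 in WT, a log2 fold change of 0.90 with SE 0.13 (adjusted p = 0.0361 in edgeR). The call of Tubb2b was lost without any 1 of the 6 libraries, at adjusted p of 0.0717 to 0.312, and with a term for both replicate 2 libraries (0.0727). It was also lost with upper-quartile scaling (0.58, edgeR adjusted p = 0.761) and with scaling on genes with 1 exon (0.45, edgeR adjusted p = 0.141). Under the latter Tubb3 stood at 0.41 and Dcx at 0.64. The 12 positive changes are those of the main scaling and were not counted under the others. Tubb3 had 3184, 3959 and 2013 counts in cKO and 1836, 2275 and 1888 in WT, a log2 fold change of 0.87 with SE 0.20 (adjusted p = 0.162 in edgeR). Dcx had 1695, 1759 and 1915 counts in cKO and 1089, 1014 and 1026 in WT, a log2 fold change of 1.06 with SE 0.26 (adjusted p = 0.176 in edgeR). Stmn4 overlapped between groups, with 415, 505 and 47 counts in cKO and 80, 87 and 68 in WT. The sum of the list ran from 26370 to 39560 CPM in cKO and from 19170 to 24690 CPM in WT. Of 11 tested projection neuron genes 0 were called by edgeR, with a median of 0.91, and 7 had positive and 4 negative fitted changes. An unadjusted edgeR p below 0.05 was found for 4 of them, all higher in cKO, as for 12.6% of all genes tested in either direction.

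Gene lists of the glial lineages had lower sums in cKO, and Sox2 and Sox6 had lower values there. Of all genes tested, 0.422% were called lower, the share against which the counts below are to be read. Of the 18 genes of the oligodendrocyte programme 7 were tested, and 6 were called lower and 0 higher, with a median log2 fold change of -7.23, with or without bounds. The 6 called genes passed the filter only through their WT libraries. Their direction was thus set in advance, and these values are a description, not a test. The list summed to 9.9 to 960 CPM in cKO and 3877 to 6096 CPM in WT, and 10 of its genes were at 0 in every cKO library, Myrf, Mag and Mog among them. Bcas1, a gene of newly formed oligodendrocytes, had 0, 1 and 0 counts in cKO and 924, 854 and 719 in WT. Of 10 oligodendrocyte precursor genes 5 were tested and 1, Pdgfra, was called lower, at -5.39 with SE 0.49 (adjusted p = 0.0114 in edgeR). That list summed to 394 to 743.7 CPM in cKO and 2717 to 2909 CPM in WT. Of 17 astrocyte genes 15 were tested and 4 were called lower, among them Aldoc, Apoe and Ndrg2, with log2 fold changes of -4.59, -1.57 and -1.86. The list also held 2 genes with positive changes: Nfix, a factor of glial and neuronal differentiation, had 2536, 2221 and 2903 counts in cKO and 1380, 2131 and 1647 in WT (0.91, SE 0.25, edgeR adjusted p = 0.224), with groups apart in CPM. Nfib stood at 0.40 with groups that overlapped, and at -0.0147 when scaled on genes with 1 exon. The astrocyte list had a median of -1.86 and summed to 9878 to 14440 CPM in cKO and 19240 to 22550 CPM in WT. Of 16 radial glia and neural stem cell genes, the cells in which Sox2 acts, 11 were tested with a median of -1.70, and 1, Fabp7, was called lower at -1.70 (SE 0.24, edgeR adjusted p = 0.0339). This list summed to 2681 to 2777 CPM in cKO and 6730 to 8119 CPM in WT. In these bulk libraries fewer cells of a type and less RNA per cell cannot be told apart. Without WT replicate 3 and without cKO replicate 1 edgeR called 0 genes in all, so no call named here held there, and 573 and 591 genes had an unadjusted p below 0.05. Without WT replicate 1 edgeR called 1 gene, Neurod2. The calls of Apoe, Ndrg2 and Fabp7 were also lost without cKO replicate 2, and those of Ndrg2 and Fabp7 without WT replicate 2 or cKO replicate 3. Upper-quartile scaling ended all 3 of these, at adjusted p of 0.0548 to 0.0992, and a term for both replicate 2 libraries ended those of Ndrg2 (0.0637) and Fabp7 (0.0904). The part of these lists in the SOX results was not tested.

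**Figure D5:**
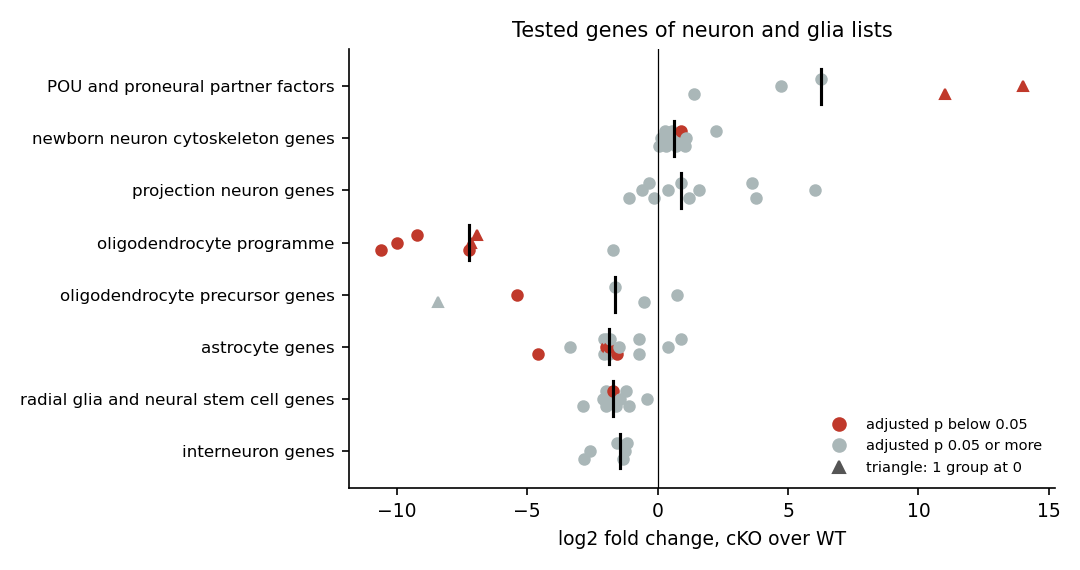
Log2 fold change, cKO over WT, of the tested genes of 8 lists, 1 point per gene, red where the edgeR adjusted p is below 0.05, with black bars at the list medians. Triangles are genes at 0 in 1 group, whose position depends on the fit; the medians run from -7.23 for the oligodendrocyte programme to 6.27 for the POU and proneural factors.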

How the data were processed

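RNA was measured in 3 Mettl14 cKO and 3 WT libraries, with groups and replicate numbers from the sample titles. The SOX genes and the gene lists were chosen with earlier results of these data known, so nothing here is independent support for those results.

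Alignment with STAR 2.7.10b and quantification with RSEM 1.3.3 on mm10 are credited to the submitters' processing notes. The gene annotation, any strand option and any filtering: not given in the sources used here. The deposited expected counts, per the file headers, are estimated fragments per transcript that need not be whole; they were summed per gene and rounded. TPM, which corrects for transcript length and library total, was summed per gene as deposited by the authors. The deposited isoform values, per the file headers, are the percent of a gene's level in each transcript. Effective lengths deposited by the authors, per the file headers, gave each library's mean fragment length. Counts of the members with a single transcript were whole in all 6 libraries within 0.005, while 10 of 18 isoform values of Sox5 and 9 of 36 of Sox6 were not. The kit named in the labels does not mark strand, so reads of overlapping antisense genes cannot be told apart.

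Counts were scaled by TMM, filtered with filterByExpr (minimum count 10) and tested by the quasi-likelihood method of edgeR 4.0.16 under R 4.3.3. All 6 libraries entered, without covariates. P-values of the 5918 tested genes were adjusted by Benjamini-Hochberg, with calls below 0.05. CPM values carry the TMM factors. Each SE was obtained by dividing the size of the log2 fold change by the root of F, and so holds no information beyond the p. Folds against a group at 0 use 3 counts over that group, with the counts of the other group taken as exact. Exon numbers were taken from GENCODE M21, matched by RefSeq accession for 23880 genes and by symbol for 308, and 223 genes were unmatched. The share of all genes called is given with the counts of each group of lists. Members that overlap in position with other genes were looked up in GENCODE M21 on GRCm38.

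Named were all 10 members, Mettl14, overlapping genes, up to 4 tested genes of smallest p per described list or its detected genes, and the 5 genes of closest profile to Sox11 and to Sox10 among those with a mean of at least 10 CPM. Nfix, Nfib, Myrf, Olig1, Olig2, Mag, Mog, Xist, Eif2s3y and the genes named as at 0 were added after their values were seen. A few genes under the rule were left unreported here. Alternatives were other scalings and filters, DESeq2 1.42.0, limma 3.58.1 (voom, and log2(TPM + 1) with a pseudocount of 1), a replicate block, a term for both replicate 2 libraries, and leaving out each library or both replicate 2 libraries. Its recovery of known changes was checked in simulated counts. Other steps used Python 3.11.15, scipy 1.17.1 and pandas 2.3.3.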

Additional observations from a re-analysis of the deposited data

How the results depend on the processing

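Against 29 genes called higher and 25 lower in cKO, scaling on genes with 1 exon gave 45 lower. No filter and a filter of 1 CPM in 3 libraries each gave 12 higher and 10 lower, a term for both replicate 2 libraries 11 and 8, and DESeq2 250 and 179. Without both replicate 2 libraries edgeR called 0 higher and 0 lower (740 genes had p below 0.05 before adjustment). Leaving out 1 library gave 0 to 28 higher and 0 to 14 lower.

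Whether the replicate numbers pair the libraries was not settled. Deviations of same-numbered libraries correlated at 0.0638, 0.462 and 0.162, and those of different numbers at -0.3094 to 0.1999. cKO replicate 1 correlated best with WT replicate 3 (0.1049) and cKO replicate 3 with WT replicate 1 (0.1999). With the replicate number as a block, edgeR called 1 gene higher and 0 lower (763 genes had p below 0.05 before adjustment), Sox11 stood at 2.47 (adjusted p = 0.11), and 0 SOX genes were called higher.

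Among the SOX genes, 0 were also called higher with upper-quartile scaling (589 genes had p below 0.05 before adjustment) and without both replicate 2 libraries, where Sox11 stood at 2.60 (adjusted p = 0.142). DESeq2 called 2 higher and 2 lower, and leaving out 1 library gave 0 to 1 higher. Sox12 turned to -0.31 with limma-voom, Nfib to -0.0147 with scaling on genes with 1 exon, and Sox5 ran from -0.94 without cKO replicate 2 to 2.55 without cKO replicate 3 and stood at -0.91 without both replicate 2 libraries. The difference between the SoxC sum and the other SOX genes, 2.28 on the log2 scale of TPM, was 2.60 in CPM, 2.06 as a mean of log2(TPM + 1) and 1.83 without Sox11. For the moves without a stated cause, the cause was not tested. Upper-quartile scaling and scaling on genes with 1 exon moved the median of all genes to -0.22 and -0.39; relative to it Sox11 stood at 2.50 and 2.47, Sox4 at 0.67 and 0.73, and Sox2 at -1.15 and -1.09. The SoxE genes had too few counts for the test.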

Other observations

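Of 10 further SOX genes in the files, 0 passed the filter. Sox13 had 3, 1 and 4 counts in cKO and 26, 2 and 5 in WT, and Sox17, an endothelial factor, had 4, 8 and 3 in cKO and 12, 13 and 5 in WT. Sox3, Sox7, Sox14, Sox15, Sox18, Sox21, Sox30 and Sry were at 0 in all 6 libraries.

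The profile of Sox10, nearly flat at the floor, was closest to those of Pink1 (root mean square distance 0.18 in centred log2(CPM + 1)), Mcts1 (0.194), Mad2l2 (0.195), Acy1 (0.195) and Psmd4 (0.216), none of which is called in edgeR. Lists of other cell types held 0 called genes in edgeR. The interneuron list, 6 genes tested, had a median log2 fold change of -1.44 and 0 genes at an unadjusted p below 0.05. It summed to 31.1 to 706.6 CPM in cKO and 981.6 to 1394 CPM in WT. The microglia list, 5 tested, had a median of -0.52, 0 genes at an unadjusted p below 0.05, and summed to 130.4 to 432.8 CPM in cKO and 216.8 to 690.8 CPM in WT. The endothelial list, 4 tested, had a median of -1.54, with 3 genes at an unadjusted edgeR p below 0.05, all lower in cKO. It summed to 73.95 to 182.2 CPM in cKO and 144.3 to 451.4 CPM in WT. The mural list, 5 tested, had a median of -0.30 with 2 such genes, both lower. It summed to 94.12 to 232 CPM in cKO and 146.2 to 267.3 CPM in WT. Of all genes tested, 12.6% had an unadjusted p below 0.05.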
